A study of Mus musculus with 2 samples.

Results

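The 10 genes described here encode the path from the insulin and IGF1 receptors to the FoxO transcription factors, and they were measured in the heart of 1 mouse. They were chosen by gene symbol, matched through the Ensembl identifier without its version, and are the receptors Insr and Igf1r, the receptor substrates Irs1 and Irs2, the PI3-kinase subunits Pik3ca and Pik3r1, the kinases Akt1 and Akt2, and the factors Foxo1 and Foxo3. All 10 were found among the 43346 Ensembl genes of the deposited tables, with 45 annotated transcripts between them. The tissue was the heart of a C57BL/6J female, adult at 10 weeks, with no treatment, transgene or mutation named in the labels. Its RNA was isolated with a column kit meant for lipid tissue and read as poly(A) RNA-seq with a size range of 350 to 450. Technical replicate 2 was produced in 2015, the labels give no year for technical replicate 1, and both carry the number of the same biological replicate. There is thus 1 animal and no contrast between conditions. The comparison made is of replicate 2 with replicate 1, its spread is technical, and nothing here extends to other mice.

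Insulin and the insulin-like growth factors bind receptor tyrosine kinases, which phosphorylate the IRS proteins on tyrosine. Phosphorylated IRS proteins recruit PI3-kinase, a dimer of a catalytic and a regulatory subunit, whose lipid product brings AKT to the membrane to be activated. AKT phosphorylates FoxO factors, which then bind 14-3-3 proteins and leave the nucleus, so that FoxO target genes of atrophy, autophagy and fuel use are less transcribed. In heart muscle the path is known for its part in physiological growth, in glucose uptake through the carrier GLUT4 and in the protection of myocytes. RNA levels do not report the phosphorylation by which the path signals.

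The step from AKT to FoxO can be read in the coding sequences of these genes. The consensus searched was a run of 6 codons, in frame on the coding strand, for arginine, any residue, arginine, any residue, any residue, and serine or threonine. Foxo1 and Foxo3 each held 3 such windows, ending at codons 24, 253 and 316 of Foxo1-201 and at codons 32, 252 and 314 of Foxo3-203. They are shown because they are the sites at which AKT is known to act on these factors, with the codon of the phosphorylated residue in capitals (RNA sense written as DNA, release M21 of the GENCODE annotation).
Foxo1 codons 19 to 24: cggcagcgctcctgtACC
Foxo3 codons 27 to 32: cggccacgctcctgtACG
Foxo1 codons 248 to 253: cggagaagagctgcgTCC
Foxo3 codons 247 to 252: cggcggcgtgcggtcTCC
Foxo1 codons 311 to 316: cgtcctcgaaccagcTCA
Foxo3 codons 309 to 314: cgctcgcgcaccaatTCC
Among 21768 genes with a complete coding sequence, 2.05% held at least 3 windows, 5.80% at least 2 and 22.6% at least 1. Irs1 held 7 windows and Irs2 held 5. Insr, Igf1r, Akt1 and Akt2 held 2 each, and Pik3ca and Pik3r1 held 0. A match describes the letters only and does not show that the residue is phosphorylated.

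Paralogs in this set shared only short uninterrupted runs of coding sequence. Identity of aligned coding bases was 77.5% for Akt1 and Akt2, 68.1% for Insr and Igf1r, 67.4% for Foxo1 and Foxo3 and 66.5% for Irs1 and Irs2. The longest run without a difference was 38 bases in Foxo1 and Foxo3, and 32 bases in Akt1 and Akt2, both short beside the stated size range. These runs show where a short read could belong to either gene.
Foxo1 and Foxo3, shared run: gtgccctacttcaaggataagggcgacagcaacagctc
Akt1 and Akt2, shared run: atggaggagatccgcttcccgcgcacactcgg
The posterior SD of the count in the deposited tables was 0 for 9 of the 10 genes in both libraries. For Akt2 it was 0.87 in replicate 2 and 0.88 in replicate 1.

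The leading transcripts differed in how much of their length was coding. Coding sequence made up 22.6% of Foxo1-201, 29.4% of Foxo3-203, 30.5% of Pik3r1-202 and 53.5% of Akt1-201. The 3′ UTRs of most members were poorer in GC than their coding sequences: 40.6% against 58.7% in Irs1, 43.4% against 58.2% in Foxo1 and 40.3% against 51.7% in Insr. The AKT genes were rich in GC throughout, with 55.4% in the 3′ UTR and 57.2% in the coding sequence of Akt1, and 54.0% and 54.5% in those of Akt2.

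For Igf1r and Irs2 the deposited tables used much shorter transcripts than release M21. Igf1r-201 is 4489 bases long in the tables and 11409 in M21, a gap of 6920 bases, and its 3′ UTR in M21 is 7267 bases. Irs2-201 is 4024 bases long in the tables and 6323 in M21, a gap of 2299 bases, with a 3′ UTR of 2329 bases. Coding sequence thus amounts to 91.5% of the deposited length of Igf1r-201 and 98.5% of that of Irs2-201. The other 43 of the 45 transcripts have the same length in both. Which bases the shorter models lack was not read, since release M4 was not used here.

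**Figure D1:**
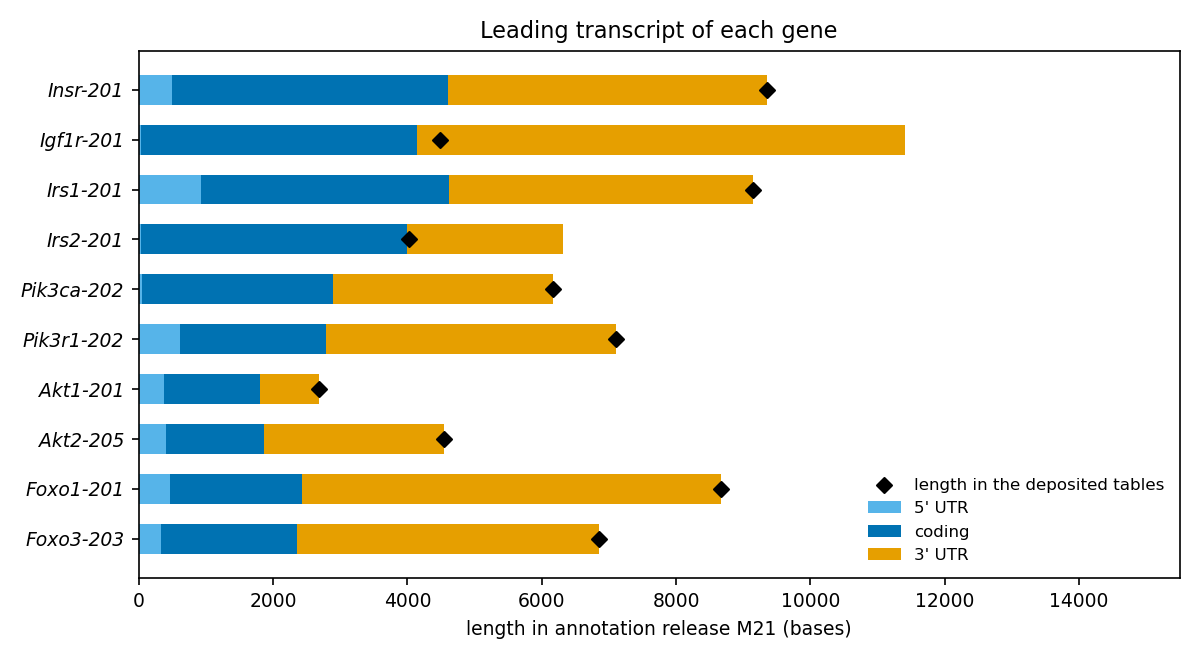
Length of the 5′ UTR, coding sequence and 3′ UTR (bases, stacked bars) of 1 leading transcript of each gene in annotation release M21, with a diamond at its length in the deposited tables. The diamonds sit at the end of the bars except for Igf1r-201 and Irs2-201, where they fall 6920 and 2299 bases short.

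The insulin receptor is known in 2 splice forms, which differ in a 36-base exon. That exon is absent from Insr-201, the transcript that took all Insr counts. In M21 it is found in Insr-203, which is not among the transcripts listed in the tables used here, between exons 10 and 11 of Insr-201, at chr8:3181702-3181737 on the minus strand of GRCm38. Its sequence is given because it is what tells the forms apart.
Insr alternative exon: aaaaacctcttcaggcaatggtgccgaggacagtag
The shares of the receptor forms with and without it were therefore not measured.

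The libraries differed widely, and each value of a member has to be read on a stated scale. Counts totalled 19685821 in replicate 2 and 22775991 in replicate 1, of which 12654724 in replicate 2 and 5028154 in replicate 1 fell on nuclear genes other than 11 near-identical copies of mitochondrial genes. Of the TPM, mitochondrial genes and those copies held 60.9% in replicate 2 but 92.8% in replicate 1. TPM, a share of the library's transcripts corrected for length, is therefore lower for nearly all nuclear genes in replicate 1, and nuclear TPM is used beside it, rescaled so that the remaining nuclear genes carry the whole total of each library. Of the cardiomyocyte markers 6 of 6 were present in both libraries, with summed levels of 63378 nuclear TPM in replicate 2 and 13748 in replicate 1. All 5 endothelial markers (609 nuclear TPM in replicate 2, 231 in replicate 1) and all 5 fibroblast markers (954 in replicate 2, 2438 in replicate 1) had counts in both libraries, and adipocyte markers summed to 50.8 in replicate 2 and 19.0 in replicate 1, with Cidec at 0 in replicate 1. Some markers ran against the sum of their list. Ttn (172 nuclear TPM in replicate 2, 293 in replicate 1), Ryr2 (280 and 357) and Kdr (82.6 and 105) were higher in replicate 1. So was the adipocyte marker Lep, with 3 counts in each library. The fibroblast markers Col1a1 (35.6 in replicate 2, 13.7 in replicate 1) and Tcf21 (13.0 and 2.08) were higher in replicate 2. Of the 5 skeletal muscle markers Myh4 and Myh1 were at 0 in both libraries. Mybpc2 had 347 counts in replicate 2 against 7 in replicate 1, Actn3 had 7 against 0, and Ckm, which heart also expresses, had 25619 against 27. Of the 3 liver markers, Alb had 814 counts in replicate 2 against 133 in replicate 1, Ttr 34 against 1 and Apoa1 31 against 1. The part of other tissues in the members' values was not tested. Which cells the members' RNA came from was not measured, and in a bulk library fewer cells of a type and less RNA per cell cannot be told apart.

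The insulin receptor was far more abundant than the IGF1 receptor in both libraries. Insr (GRCm38 chromosome 8, 3122061 to 3279617, minus strand, with positions of all members from M21), the receptor tyrosine kinase for insulin, had 3617 counts in replicate 2 and 3341 in replicate 1. In TPM these were 20.4 in replicate 2 and 11.2 in replicate 1, and in nuclear TPM 52.2 in replicate 2 and 156 in replicate 1. It stood within the top 14.9% of nuclear genes detected in replicate 2 and the top 7.78% of those in replicate 1. Igf1r (chromosome 7, 67952827 to 68233668, plus strand), the receptor for IGF1, had 194 counts in replicate 2 and 9 in replicate 1. Its levels were 2.33 TPM in replicate 2 and 0.06 in replicate 1, and in nuclear TPM 5.96 in replicate 2 and 0.83 in replicate 1. Igf1r is the lowest member in replicate 2, and these levels rest on the short transcript described above. Insrr, the insulin receptor-related receptor, had no count in either library, which allows up to 3 counts. Within a library and per base of effective length, Insr exceeded Igf1r 8.75-fold in replicate 2 (exact 95% binomial interval 7.57 to 10.2) and 174-fold in replicate 1 (91.7 to 381). The intervals do not overlap, so the size of the excess is not settled by these libraries, while its direction is shared. These ratios rest on the short Igf1r transcript too, and its part in the excess of Insr was not tested.

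Of the receptor substrates, Irs1 led Irs2 in both libraries. Irs1 (chromosome 1, 82233101 to 82291416, minus strand), a docking protein for PI3-kinase, had 941 counts in replicate 2 and 799 in replicate 1, with levels of 5.43 TPM in replicate 2 and 2.75 in replicate 1. In nuclear TPM these were 13.9 in replicate 2 and 38.1 in replicate 1. Irs2 (chromosome 8, 10984681 to 11008458, minus strand), its paralog, had 260 counts in replicate 2 and 1 in replicate 1. Its levels were 3.50 TPM in replicate 2 and 0.01 in replicate 1, and in nuclear TPM 8.95 in replicate 2 and 0.14 in replicate 1, where it was the lowest member. Irs1 exceeded Irs2 1.55-fold per effective length in replicate 2 (1.35 to 1.79). In replicate 1, with a single Irs2 count, the ratio was 342 with an interval of 61.3 to 13537. The minor substrate genes were nearly absent, Irs3 with 16 counts in replicate 2 against 0 in replicate 1 and Irs4 with 0 against 1. Irs1 thus made up 58.3% of the TPM of the 4 IRS genes in replicate 2 and 99.3% in replicate 1. The Irs2 levels, and with them these ratios and shares, rest on the short Irs2 transcript described above. Its part in the lead of Irs1 was not tested.

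With no allowance for GC content, the PI3-kinase subunits kept the steadiest ratio of the 5 pairs of members. Pik3r1 (chromosome 13, 101680563 to 101768217, minus strand), which encodes the p85 alpha regulatory subunit, had 2609 counts in replicate 2 and 2258 in replicate 1. It was at 20.01 TPM in replicate 2 and 14.2 in replicate 1, and in nuclear TPM at 51.2 in replicate 2 and 196 in replicate 1, where it was the highest member. Pik3ca (chromosome 3, 32397671 to 32468486, plus strand), which encodes the p110 alpha catalytic subunit, had 1185 counts in replicate 2 and 1040 in replicate 1, at 9.68 TPM in replicate 2 and 6.02 in replicate 1. Its nuclear TPM was 24.8 in replicate 2 and 83.4 in replicate 1. The regulatory subunit exceeded the catalytic one 2.07-fold per effective length in replicate 2 (1.93 to 2.22) and 2.35-fold in replicate 1 (2.19 to 2.54). As a log2 ratio of TPM with 0.1 added this was 1.13 ± 0.13 (SD, n = 2 libraries). By counts alone the ratio was 2.20 in replicate 2 and 2.17 in replicate 1. Matching the GC profile of replicate 1 to that of replicate 2 moved the mean log2 ratio to 1.54. Relative to genes of like GC content, the log2 ratio of replicate 2 over replicate 1 was −0.16 for Pik3r1 and 0.63 for Pik3ca. Foxo1 at −0.86 and Foxo3 at −1.27 lay closer together, so the PI3-kinase pair was not the steadiest on that scale.

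Both subunits were the leading forms of their families in each library. Pik3ca exceeded the beta subunit Pik3cb 3.65-fold in replicate 2 (3.21 to 4.17) and 7.53-fold in replicate 1 (6.38 to 8.94). It made up 70.7% of the TPM of the 4 class I catalytic genes in replicate 2 and 86.2% in replicate 1. Pik3cd, the catalytic form best known in leukocytes, had 86 counts in replicate 2 against 3 in replicate 1. Pik3cg, the gamma form, had 32 in replicate 2 and 26 in replicate 1. Pik3r1 exceeded Pik3r3 6.52-fold in replicate 2 (5.78 to 7.37) and 9.95-fold in replicate 1 (8.70 to 11.4). Against Pik3r2, which encodes p85 beta, its excess was 2.13-fold in replicate 2 (1.93 to 2.36) and 342-fold in replicate 1 (133 to 1256), where Pik3r2 had 4 counts.

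By the point values of scaled counts, the AKT kinases differed more between the libraries than any other member except Irs2. The interval of the log2 ratio of Igf1r (2.01 to 4.11) contains that of Akt2 (3.01 to 3.52). Relative to genes of like GC content, Akt1 stood at −0.19 and Akt2 at 0.50, both within 2-fold. Akt1 (chromosome 12, 112653821 to 112674884, minus strand), the broadly expressed form, had 2785 counts in replicate 2 and 51 in replicate 1, with levels of 60.1 TPM in replicate 2 and 0.63 in replicate 1. In nuclear TPM it stood at 154 in replicate 2 and 8.73 in replicate 1. Akt2 (chromosome 7, 27591552 to 27640826, plus strand), the form most tied to insulin-driven glucose uptake, had 3510 counts in replicate 2 and 132 in replicate 1. It was at 66.6 TPM in replicate 2 and 0.99 in replicate 1, and in nuclear TPM at 170 in replicate 2 and 13.7 in replicate 1. In replicate 2 they were the 2 highest members, within the top 4.93% (Akt1) and 4.42% (Akt2) of detected nuclear genes. In replicate 1 they stood within the top 47.8% (Akt1) and 40.3% (Akt2) of detected nuclear genes.

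Akt1 was below Akt2 within each library, at 0.90 of it in replicate 2 (0.86 to 0.95) and 0.64 in replicate 1 (0.45 to 0.88). The mean log2 ratio was −0.36 ± 0.30 (SD, n = 2), and it turned to 0.50 once the GC profile of replicate 1 was matched to that of replicate 2. By counts alone the ratio was 0.79 in replicate 2 and 0.39 in replicate 1.

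With the 11 copies of mitochondrial genes set aside, Foxo3 was the member whose nuclear TPM agreed best between libraries. Foxo3 (chromosome 10, 42181841 to 42276755, minus strand), a factor for atrophy and autophagy genes in muscle, had 1740 counts in replicate 2 and 502 in replicate 1. It was at 13.6 TPM in replicate 2 against 2.32 in replicate 1. In nuclear TPM it was at 34.8 in replicate 2 and 32.1 in replicate 1, which average 33.5 ± 1.89 (SD, n = 2). With mitochondrial genes alone set aside, the mean was 13.7 and this agreement was lost. Relative to genes of like GC content, Foxo3 stood at −1.27 on the log2 scale, lower in replicate 2. Foxo1 (chromosome 3, 52268336 to 52353221, plus strand), a factor for metabolic genes, had 525 counts in replicate 2 and 395 in replicate 1, with 3.20 TPM in replicate 2 and 1.44 in replicate 1. Its nuclear TPM was 8.18 in replicate 2 and 19.9 in replicate 1. Foxo1 was below Foxo3 in both libraries, at 0.24 of it per effective length in replicate 2 (0.21 to 0.26) and 0.62 in replicate 1 (0.54 to 0.71). Foxo4, another factor of the family, had 1209 counts in replicate 2 and 216 in replicate 1. Foxo3 stood at 0.64 of it in replicate 2 (0.60 to 0.69) and 1.04 in replicate 1 (0.88 to 1.22). Foxo4 thus led the FoxO genes of replicate 2 with 53.9% of their TPM, while Foxo3 (38.6%) and Foxo4 (37.3%) were level in replicate 1. Foxo6 had 64 counts in replicate 2 and 1 in replicate 1.

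**Figure D2:**
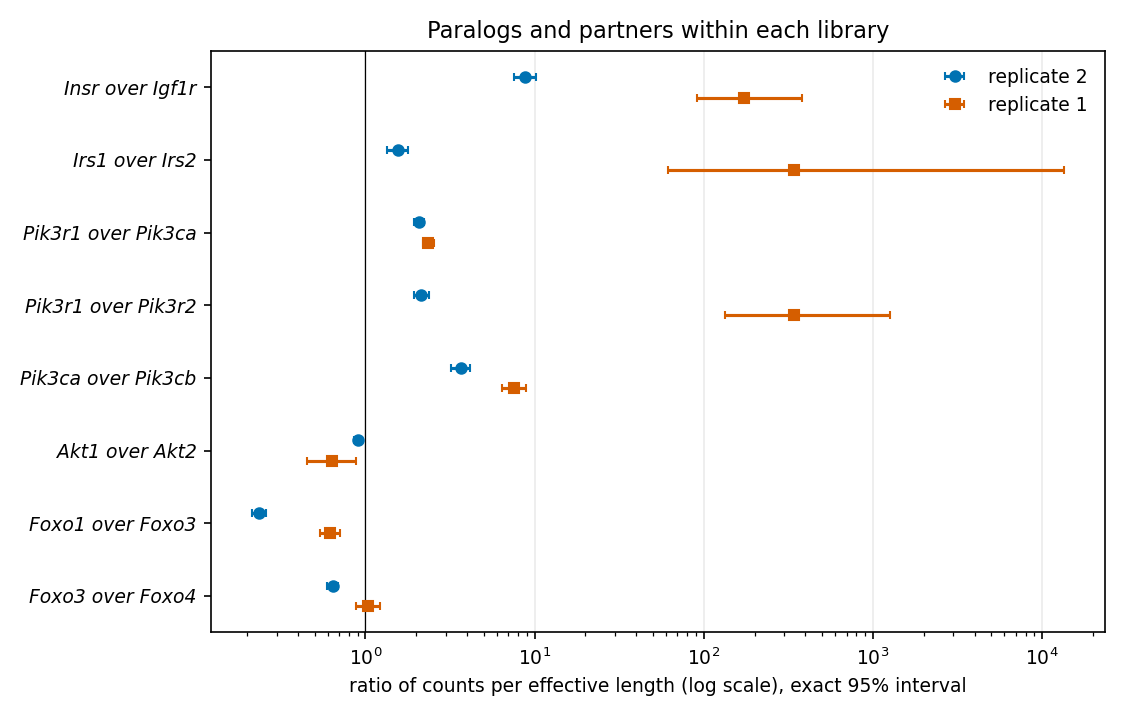
Ratio of counts per effective length between 2 genes of a family or complex (log axis) in replicate 2 (blue circles) and replicate 1 (orange squares), with exact 95% binomial intervals that cover counting error only. Insr over Igf1r, Irs1 over Irs2 and Pik3r1 over Pik3ca lie above 1 in both libraries, and Akt1 over Akt2 and Foxo1 over Foxo3 lie below 1 in both.

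Summed over the 10 genes, the path was at 524 nuclear TPM in replicate 2 and 549 in replicate 1, while the sums of deposited TPM were 205 in replicate 2 and 39.6 in replicate 1. All 10 reached 1 nuclear TPM in replicate 2 and 8 did in replicate 1, where Igf1r and Irs2 did not. In order of mean nuclear TPM (SD, n = 2) the highest were Pik3r1 at 124 ± 103, Insr at 104 ± 73.2, Akt2 at 92.0 ± 111 and Akt1 at 81.2 ± 103. Pik3ca followed at 54.1 ± 41.5, then Foxo3 at 33.5 ± 1.89 and Irs1 at 25.99 ± 17.1. Foxo1 at 14.1 ± 8.32, Irs2 at 4.55 ± 6.23 and Igf1r at 3.40 ± 3.63 came last. With mitochondrial genes alone set aside, so that the 11 copies stay in the total, the order of means changed and Akt2 led at 52.1, before Akt1 at 46.7, Pik3r1 at 35.5, Insr at 31.6 and Pik3ca at 15.96. The order within each library is the same on both scales. No neighbours in the first order are separated, since for each of the 9 neighbouring pairs the values of the libraries overlap. Of all 45 pairs of members, 28 had the same order within both libraries. For 22 pairs every nuclear TPM of one gene lay above every value of the other, among them Insr and Pik3r1 above Foxo3, Irs1, Foxo1, Irs2 and Igf1r. Which pairs separate depends on this scale, and the share over pairs of all genes was not computed. Akt2 held place 1 in replicate 2 and place 7 in replicate 1, and Akt1 held place 2 in replicate 2 and place 8 in replicate 1.

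**Figure D3:**
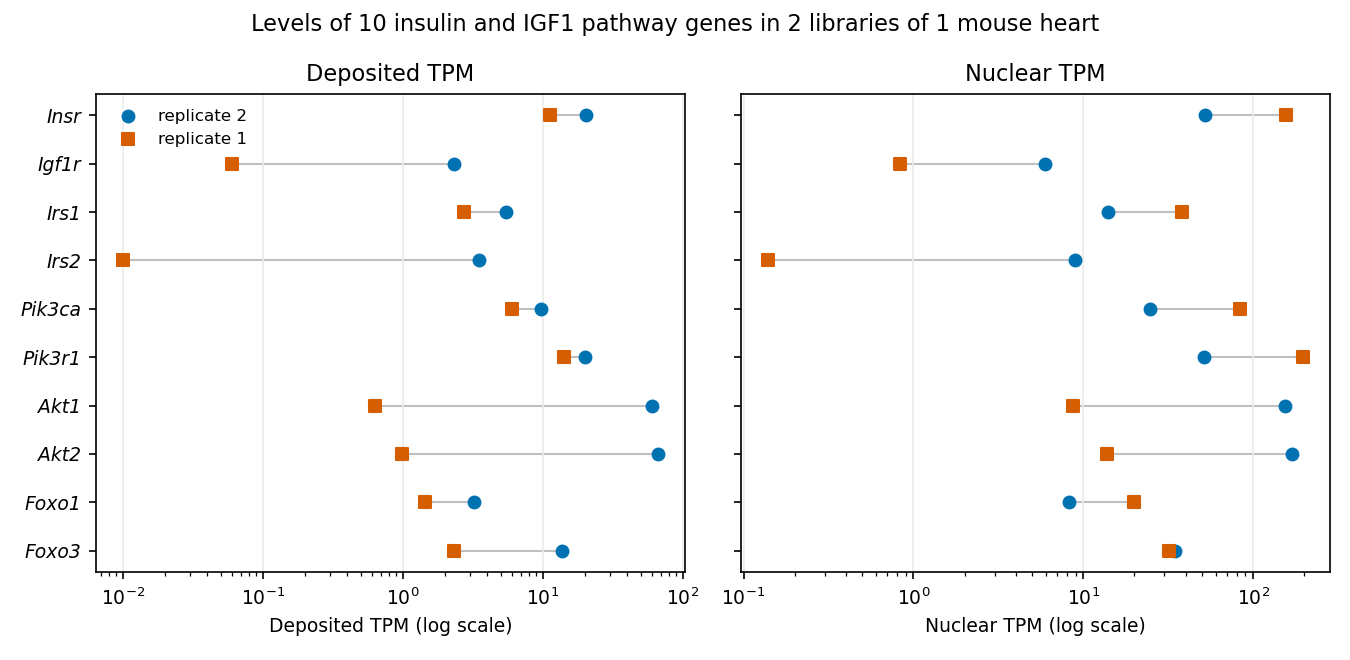
Deposited TPM (left) and nuclear TPM (right) of the 10 genes on log axes in replicate 2 (blue circles) and replicate 1 (orange squares), joined by a grey line. On the left every gene is higher in replicate 2, and on the right Insr, Irs1, Pik3ca, Pik3r1 and Foxo1 are lower in replicate 2 while Foxo3 is at 34.8 in replicate 2 and 32.1 in replicate 1.

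The libraries were set against each other with TMM scaling, which levels a trimmed mean of the gene ratios. They differed at least 2-fold for 9 of the 10 genes, 4 higher and 5 lower in replicate 2. Of the 13182 genes tested, 39.0% were at least 2-fold higher and 27.3% at least 2-fold lower in replicate 2, so that differences of this size were common. With 1 library on each side there is no test, and the exact 95% intervals cover counting error only. Higher in replicate 2 were Irs2 with a log2 ratio of 5.97 (4.06 to 11.86), Akt1 with 4.29 (3.90 to 4.73), Akt2 with 3.26 (3.01 to 3.52) and Igf1r with 2.89 (2.01 to 4.11). Lower in replicate 2 were Insr at −1.36 (−1.42 to −1.29), Pik3ca at −1.28 (−1.40 to −1.16) and Pik3r1 at −1.26 (−1.34 to −1.18). Irs1 at −1.23 (−1.37 to −1.10) and Foxo1 at −1.06 (−1.25 to −0.87) also stood lower. The interval of Foxo1 crosses the 2-fold limit, and its ratio was −0.92 with totals of nuclear counts as the scale. Foxo3, at 0.32 (0.18 to 0.47), was within 2-fold. At a 4-fold limit the same 4 genes were higher and 0 lower, beside 28.2% and 6.96% of all genes. In deposited TPM the direction of the 5 lower genes flips and all 10 are higher in replicate 2, by 1.41-fold for Pik3r1 to 350-fold for Irs2. On that scale the median of all tested genes was shifted by 1.95 (log2), with 75.2% of them at least 2-fold higher and 0.372% at least 2-fold lower in replicate 2.

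The library ratio of the members followed their GC content. Pik3ca, the poorest in GC at 40.9%, and Pik3r1 at 44.8% were lower in replicate 2, and Akt1, the richest at 59.6%, and Irs2 at 56.6% were higher by the most. Spearman's rho between GC content of the transcript and log2 ratio was 0.89 over the 10 genes and 0.90 over the 13115 tested genes with a GC value, and Pearson's r was 0.80 over the 10 genes and 0.85 over the tested genes. These coefficients describe points that share both libraries. Nuclear counts had a mean GC content of 50.5% in replicate 2 and 45.0% in replicate 1. With the GC content of the coding sequence in its place, rho was 0.62 over the members and 0.73 over 12450 genes. The part of fragmentation, amplification or RNA quality in these ratios was not tested.

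When the median log2 ratio of genes of like GC content was subtracted, 4 members remained beyond 2-fold. Igf1r stood 2.81 and Irs2 2.49 above their GC bins on the log2 scale, where 14.7% of all genes were at least 2-fold above. Irs1 stood at −1.67 and Foxo3 at −1.27, where 12.9% of all genes were at least 2-fold below. The other 6 were within 2-fold of their bins, Akt1 at −0.19, Pik3r1 at −0.16, Akt2 at 0.50, Pik3ca at 0.63, Insr at −0.71 and Foxo1 at −0.86. Igf1r and Irs2 are the members whose deposited transcripts are shorter than in M21, and the GC content used for them is that of the full M21 transcripts, not of the models that were counted. With the GC content of their coding sequences instead, 54.3% for Igf1r and 63.6% for Irs2, placed in the same bins after seeing the data, they stood 0.72 and 0.84 above their bins, both within 2-fold. Across the tested genes, 372 have a leading transcript that is at least 1000 bases longer in M21, and they had a median of 0.38 above their GC bins, against −0.01 for the 9533 of equal length. The part of the annotation in the values of Igf1r and Irs2 was not tested beyond this. With bins of coding GC content, a choice made after seeing the data, the same 4 genes as at first were higher and Insr, Irs1, Foxo1 and Foxo3 were lower, at −1.52, −4.46, −3.79 and −2.91. Backgrounds were 22.9% higher and 22.1% lower on that scale.

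**Figure D4:**
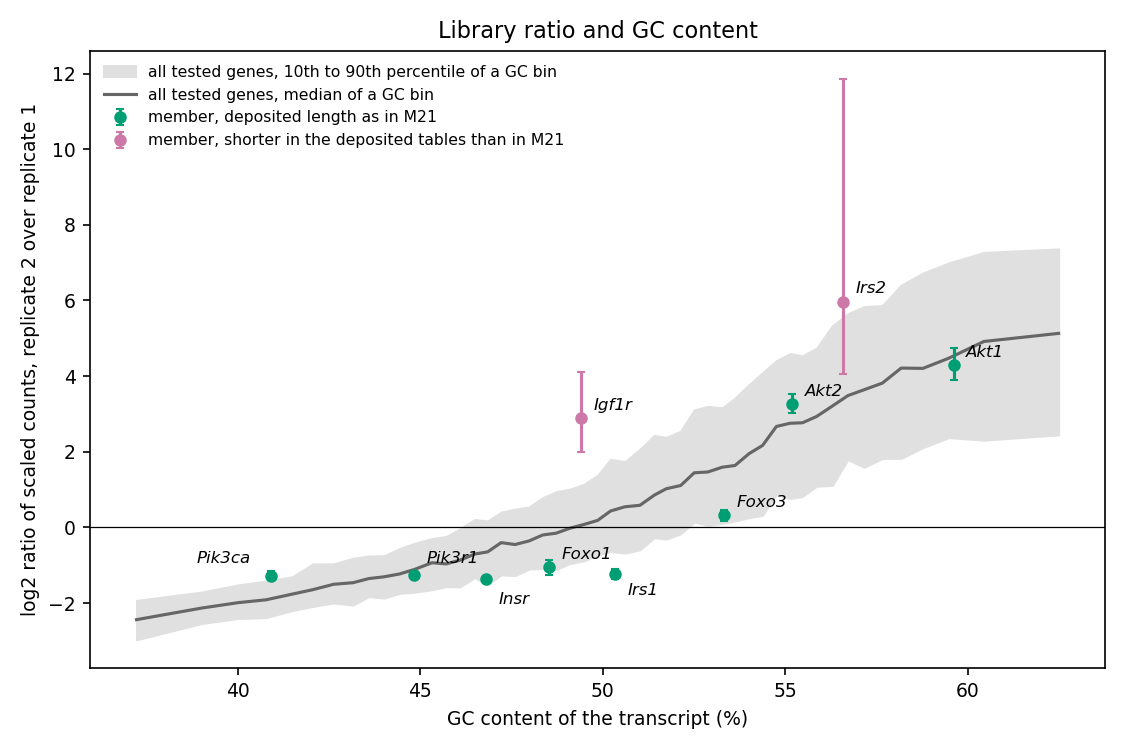
Log2 ratio of TMM-scaled counts, replicate 2 over replicate 1, against GC content of the transcript (%), for the 10 genes (points, exact 95% intervals) over the median (line) and the 10th to 90th percentile (band) of all tested genes in 50 GC bins. Igf1r and Irs2 (pink, shorter in the deposited tables) and Pik3ca lie above the band, Irs1 lies below it, and the other 6 lie within it.

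Transcript shares were alike in both libraries for some members and not for others. Irs1, Irs2, Igf1r and Foxo1 have 1 transcript each in the tables and could not differ, and of the 6 with more, 4 had the same leading transcript. Insr-201 took 100% in both libraries, Foxo3-203 took 99.1% in replicate 2 and 100% in replicate 1, and Akt1-201 took 95% in replicate 2 and 100% in replicate 1. The posterior share of Akt1-201 was 90.9% in replicate 2 and 51.0% in replicate 1, where Akt1 had 51 counts.

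For Akt2 and the PI3-kinase subunits the shares moved. Akt2-201 led in replicate 2 with 61.9% but had none of the counts of replicate 1, where Akt2-205, with 10.9% in replicate 2, took 93.7%. Akt2-205 is the longest Akt2 transcript of the tables at 4544 bases, with a 3′ UTR of 2685 bases. Of the 132 counts of replicate 1, 131 were assigned to it. The posterior share of Akt2-205 was only 44.4% in replicate 1, and 10.6% in replicate 2. Pik3r1-202, which encodes the full p85 alpha of 724 codons, led with 97.2% in replicate 2 and 68.5% in replicate 1. Pik3r1-205, a model of 701 bases with an incomplete coding sequence, held 0% in replicate 2 and 31.1% in replicate 1, from only 73.5 counts. The effective length of Pik3r1 was 6741 bases in replicate 2 and 4916 in replicate 1, where that share lowers it and so raises the TPM. Pik3ca was led in replicate 2 by Pik3ca-203, with 50.9% there but 0% in replicate 1. Pik3ca-202, with a coding sequence of 2838 bases, held 42.4% in replicate 2 and led replicate 1 with 56.2%. Pik3ca-201 and Pik3ca-203 both have a coding sequence of 3204 bases. Pik3ca-201 held 5.52% in replicate 2 from 90.2 counts and 21.9% in replicate 1 from 372 counts. The retained-intron model Pik3ca-204, of 440 bases, took 1.14% in replicate 2 from 0.54 counts and 21.9% in replicate 1 from 10.8 counts. By counts, Pik3ca and Pik3r1 came almost wholly from coding transcripts in both libraries.

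**Figure D5:**
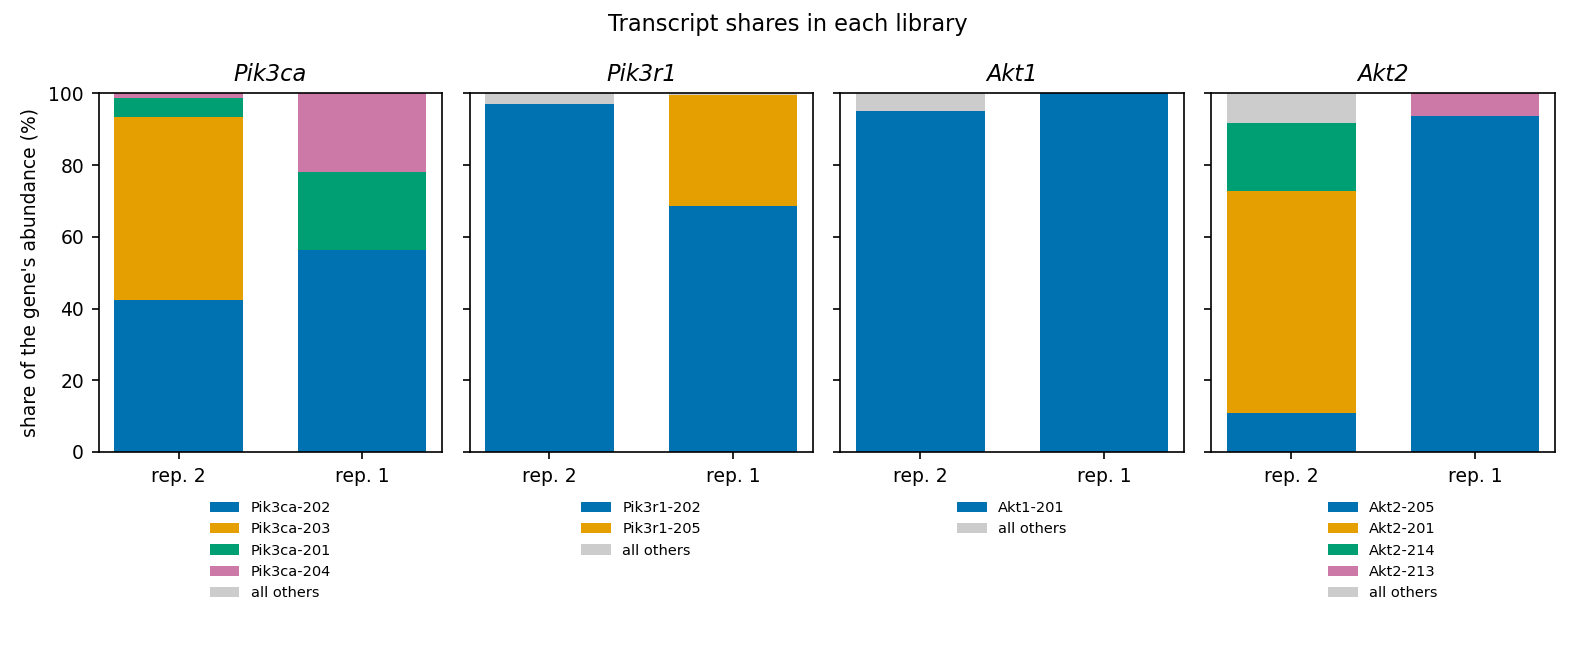
Share of each gene's abundance (%) carried by its transcripts in replicate 2 (left bar) and replicate 1 (right bar) for Pik3ca, Pik3r1, Akt1 and Akt2, with transcripts under 5% in both libraries pooled in grey. Akt2-205 fills 10.9% of the bar in replicate 2 and 93.7% in replicate 1, and Pik3r1-205 and Pik3ca-204 appear mainly in replicate 1.

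Of 78 other genes of the path, 69 were tested, and on TMM-scaled counts 24 were higher and 15 lower in replicate 2, with a median log2 ratio of 0.18 beside 0.21 for all genes. The shares called lie near those of all tested genes given above. Among the ligands and binding proteins 3 of 8 were higher and 1 lower. The insulin genes Ins1 and Ins2, known as genes of pancreatic beta cells, had no count. Igf1 had 275 counts in replicate 2 and 469 in replicate 1 (log2 ratio −2.24), and Igf2 had 901 in replicate 2 and 374 in replicate 1 (−0.20, within 2-fold). The IGF-binding genes Igfbp7 (220 nuclear TPM in replicate 2 and 159 in replicate 1), Igfbp5 (112 in replicate 2, 131 in replicate 1) and Igfbp4 (96.4 in replicate 2, 21.1 in replicate 1) were the most abundant by the mean of the libraries. Igfbp3, at 36.96 nuclear TPM in replicate 2 and 45.9 in replicate 1, was above Igfbp4 in replicate 1. Igfbp6 had 321 counts in replicate 2 and 0 in replicate 1, at least 38.6-fold higher in replicate 2 when 3 counts are allowed for the 0.

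Next to the receptors, 2 of 9 tested adaptor genes were higher and 0 lower in replicate 2. Of all tested genes, 39.0% were higher and 27.3% lower. Grb14, an inhibitory adaptor of the insulin receptor, was the most abundant at 181 nuclear TPM in replicate 2 and 751 in replicate 1, followed in mean level by Grb2 (82.9 in replicate 2, 114 in replicate 1) and the tyrosine phosphatase gene Ptpn11 (119 in replicate 2, 73.7 in replicate 1). The adaptor Sh2b1 had 1082 counts in replicate 2 against 10 in replicate 1. The feedback inhibitor Socs3 had 93 in replicate 2 against 5 in replicate 1. Gab1, a docking adaptor, had a log2 ratio of −0.47, within 2-fold. Among 11 other PI3-kinase and lipid phosphatase genes 6 were higher and 3 lower. The lipid phosphatase Inpp4b was lower at −1.81 and Pik3cg at −1.18. Pik3ip1, an inhibitor of PI3-kinase, was higher at 2.01, with 508 counts in replicate 2 against 45 in replicate 1. Inppl1 was higher at 2.74, and Pik3r6, a regulatory subunit of the gamma form, had 108 counts in replicate 2 and 3 in replicate 1.

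Of 20 genes around AKT and mTOR 9 were higher and 5 lower in replicate 2, again beside 39.0% and 27.3% of all tested genes. Slc2a4, the insulin-regulated glucose carrier GLUT4, had 6398 counts in replicate 2 and 129 in replicate 1, a log2 ratio of 4.16 and 1.39 above its GC bin. Tbc1d4, the AKT substrate that restrains GLUT4 vesicles, had 2383 counts in replicate 2 against 1834 in replicate 1 (−1.09), and Rheb, the activator of mTORC1, had 1109 in replicate 2 and 1267 in replicate 1 (−1.66). Gsk3b, a kinase that AKT phosphorylates, had a log2 ratio of −1.44. Trib3, a pseudokinase that binds AKT, had 25 counts in replicate 2 and 0 in replicate 1. Among 22 genes listed as FoxO family members, partners and targets, which again include the ligand gene Igf1, 4 were higher and 7 lower. The 14-3-3 gene Ywhae was at 377 nuclear TPM in replicate 2 and 1583 in replicate 1, and the FoxO targets Bnip3 and Pdk4 were at 335 and 295 in replicate 2 and at 939 and 602 in replicate 1. The deacetylase gene Sirt1 was lower at −2.27, and the FoxO target Klf15 was higher at 2.05. In deposited TPM, Rheb and Sirt1 were lower in replicate 2 as well, whereas Igf1, Inpp4b, Pik3cg, Gsk3b, Tbc1d4, Ywhae and Bnip3 were higher.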

How the data were processed

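Annotation release M4 on mouse assembly mm10 underlies the gene and transcript tables, per the descriptions deposited with them. For the aligner, the abundance program and the use of strand, the sources used here give nothing. The authors' expected counts need not be whole and were rounded for the ratios. The deposited TPM and FPKM are corrected for length, and FPKM served in an alternative. Transcript shares are deposited as a percent of the gene. Effective length and posterior values are the authors' own.

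Symbols, coordinates (1-based), coding sequences and GC content come from GENCODE release M21 of GRCm38, the same assembly, and the printed sequences from its transcripts. Nuclear TPM sets aside 37 mitochondrial genes and 11 copies (blastn 2.17.0, at least 95% identity over 90% of length). Library ratios are log2 of replicate 2 over replicate 1 with 0.5 counts added, over genes with at least 20 counts in both together, with TMM sizes from edgeR 4.0.16 (R 4.3.3) and a 2-fold limit. No p-values were computed, since each side is 1 library. Intervals are 95% exact binomial (Clopper-Pearson, scipy 1.17.1) and reflect counting error alone, as PCR reads are not independent molecules. Reads of opposite-strand genes that overlap exons of Irs1, Irs2 and Foxo1 cannot be separated, but those genes had at most 1 count. The ratio step was tested on simulated counts drawn from a profile shared by both libraries. These lacked the GC trend and the mitochondrial difference seen here, so they cannot show that the scaling holds for these libraries. Alternatives covered scaling (DESeq2 1.42.0 size factors, nuclear totals, TPM), filters, estimates, GC content, thresholds, pseudocounts and single libraries.

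The members and lists were chosen with earlier results of these data known. Named beyond the members are their paralogs, the ligands and, per list, the 3 genes of highest mean nuclear TPM and the 2 with the largest ratio in each direction. Some genes of these lists are not reported here and were left out of the list counts. Protein sequences were not used here, and the search of proteins planned for AKT sites was made on coding sequences instead.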

Additional observations from a re-analysis of the deposited data

How the results depend on the processing

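No paired analysis was possible because there is 1 group of 2 libraries. Of the 2-fold counts, the members higher in replicate 2 were 2 with the GC trend removed and 0 with coding GC used for Igf1r (0.72) and Irs2 (0.84). The members lower were 0 in deposited TPM, 2 with the GC trend removed and 0 at a 4-fold limit. Other alternatives kept both counts within 1.5 times. The log2 library ratios that turned were, in deposited TPM, Insr 0.85, Irs1 0.96, Pik3ca 0.68, Pik3r1 0.49 and Foxo1 1.10. With the GC trend removed they were Pik3ca 0.63, Akt1 −0.19 and Foxo3 −1.27, and with coding GC Pik3ca 0.16 and Foxo3 −2.91. Among pairs of members, beyond the SD, the log2 ratio of Pik3r1 over Pik3ca moved to 1.54 (GC) and 1.33 (coding GC), and Akt1 over Akt2 to −0.85 by counts without length, turning to 0.50 (GC) and 0.22 (coding GC). The SD is wide where the libraries disagree, so staying within it does not make a pair steady. Leaving out 1 library cannot pass it. Irs1 over Irs2, with an SD of 2.88, ran from 0.62 (replicate 2 alone) to 5.46 (counts). Insr over Igf1r, with an SD of 2.17, ran from 3.08 (replicate 2 alone) to 6.34 (counts). Foxo1 over Foxo3, with an SD of 0.99, ran from −2.25 (GC) to −0.65 (replicate 1 alone). With replicate 2 alone or replicate 1 alone, Foxo3 over Foxo4 was −0.64 and 0.049. Counts without length turned Foxo3 over Foxo4 to 0.87. Ratios to other paralogs also moved, among them Pik3ca over Pik3cd to 1.59 (GC), Foxo1 over Foxo4 to −3.13 (GC) and −0.17 (counts), Foxo3 over Foxo4 to −0.88 (GC), and Pik3ca over Pik3cg within 2.83 to 5.24. With mitochondrial genes alone set aside, mean nuclear TPM was lower for all 10, by more than the SD for Irs1 (8.06), Foxo1 (4.49) and Foxo3 (13.7), and Akt2 (52.1) and Akt1 (46.7) then stood above Pik3r1 (35.5) and Insr (31.6). With posterior means it was 28.1 for Foxo3. Posterior shares were 99.7% for Insr-201, 70.9% for Akt1-201 and 95.3% for Foxo3-203. Nuclear totals and DESeq2 size factors shifted the median of all genes by 0.14 and −0.11 (log2). The cause of these shifts was not tested. Low counts in replicate 1 limit the precision, with 9 counts of Igf1r, 1 of Irs2, 51 of Akt1 and 132 of Akt2.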
